A study of Rattus norvegicus with 5 samples.

Results

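The genes described here encode the subunits of AMPA and NMDA receptors, the ionotropic glutamate receptors that carry most fast excitatory input to striatal projection neurons. They were taken from a list of 10 gene symbols, the AMPA receptor genes Gria1 to Gria4 and the NMDA receptor genes Grin1, Grin2a to Grin2d and Grin3a. Of these, 9 were matched by symbol to an Ensembl identifier in the authors' deposited comparison, which holds 12054 genes, where 32285 were counted. Grin2d was not found there by symbol and is not analysed here. The 9 matched genes all passed the filter on low counts, as did 13811 genes of the whole series. Of those 13811 genes, 11904 had a symbol in that comparison. Nearly every gene matched this way thus passed, so passing says little about the 9.

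The counts came from neurons cut out of the rat striatum by laser capture and picked by the fluorescent retrograde tracer that their axons had carried back from an injected target region. Striatomesencephalic neurons, whose axons reach the midbrain (the direct pathway), gave 2 libraries. Striatopallidal neurons, whose axons reach the pallidum (the indirect pathway), gave 3 libraries. The labels give no strain, age, sex, treatment or number of captured cells, and they do not say whether libraries came from separate animals, so p-values measure only the spread between these libraries.

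AMPA and NMDA receptors are ion channels built from several subunits around a central pore. In AMPA receptors the mix of subunits sets conductance, kinetics and calcium entry, and a receptor that contains the edited form of the Gria2 product passes little calcium. NMDA receptors need the Grin1 product, which binds the co-agonist glycine or D-serine, together with Grin2 products, which bind glutamate. The Grin2 subunit sets how long the channel stays open and how strongly magnesium blocks it. Cortical and thalamic axons are the main glutamatergic input to both kinds of striatal projection neuron.

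Library totals ran from 20845178 to 24805062 counts, so that 3 counts, taken as the detection floor, were worth 0.121 to 0.144 CPM, the unit of counts scaled to a common library total. Reads carried no molecular identifiers, and this floor covers counting error only. The pathway receptors ran with the labels: the dopamine receptor gene Drd1 stood at 861 and 1084 CPM in the striatomesencephalic libraries, against 582, 311 and 415 CPM in the striatopallidal libraries, and Drd2 at 144 and 110 CPM against 606, 391 and 524 CPM. Each pathway's receptor was thus also counted in the other group. Spearman correlations across the genes tested ran from 0.785 to 0.820 between striatopallidal replicate 2 and each other library, and from 0.845 to 0.907 among the rest. For Gria2, Gria3, Gria4, Grin2c and Frrs1l the fold change without that library is given below as well. Other cells also left RNA: the 8 oligodendrocyte markers summed to 5904 and 7345 CPM in the striatomesencephalic libraries, against 7089, 6639 and 5230 CPM in the striatopallidal libraries. The marker list of oligodendrocyte precursors, cells which carry AMPA receptors, had 3 of 5 members matched. It summed to 256 and 187 CPM in the striatomesencephalic libraries, against 278, 173 and 283 CPM in the striatopallidal libraries. Most of this sum was Olig1 alone, at 212 and 152 CPM against 239, 136 and 216 CPM. Microglia (4 of 8 markers matched) and vascular cells (4 of 7) had sums of 18.2 to 103 CPM, and the 18 spiny projection neuron markers 18072 to 27672 CPM. The 7 cortical glutamatergic markers were not matched and are not analysed here.

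Among AMPA receptor genes, striatomesencephalic libraries held more Gria1 and less Gria3 and Gria4 than every striatopallidal library, while Gria2 was level. Among NMDA receptor genes, Grin2c was lower in both striatomesencephalic libraries than in every striatopallidal library, and the other 4 overlapped. None of the 9 genes passed the test across the whole table. In edgeR's quasi-likelihood test with Benjamini-Hochberg adjustment over all 13811 genes, 0 of 9 subunit genes had an adjusted p below 0.05, and neither did any other gene, a share called of 0%. At an unadjusted p below 0.05 there were 2 subunit genes, Gria3 and Grin2c, both lower in striatomesencephalic libraries, where 3.14% of all genes were called in that direction and 2.93% in the other. That count was 1 under DESeq2, limma voom, the exact test of edgeR and without each striatopallidal library in turn, and 0 with the replicate number as a block and without either striatomesencephalic library. DESeq2, which called 1.66% of the genes to which it gave an adjusted p, called 0 of the 9. The exact test of edgeR, which called 45 of all 13811 genes, also called 0 of the 9. Limma voom called no gene at all.

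In CPM, the groups did not overlap for 4 of the 9 genes, 1 higher and 3 lower in striatomesencephalic libraries. Over all genes tested, 11.2% were higher without overlap and 9.91% lower. The same 4 genes did not overlap on CPM scaled by TMM, the trimmed mean scaling used in the test. The 9 genes had a median log2 fold change of -0.07, beside -0.06 over all genes tested. All fold changes below are log2 values of striatomesencephalic over striatopallidal libraries from the TMM-scaled fit, and CPM values refer to each library's own total.

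**Figure D1:**
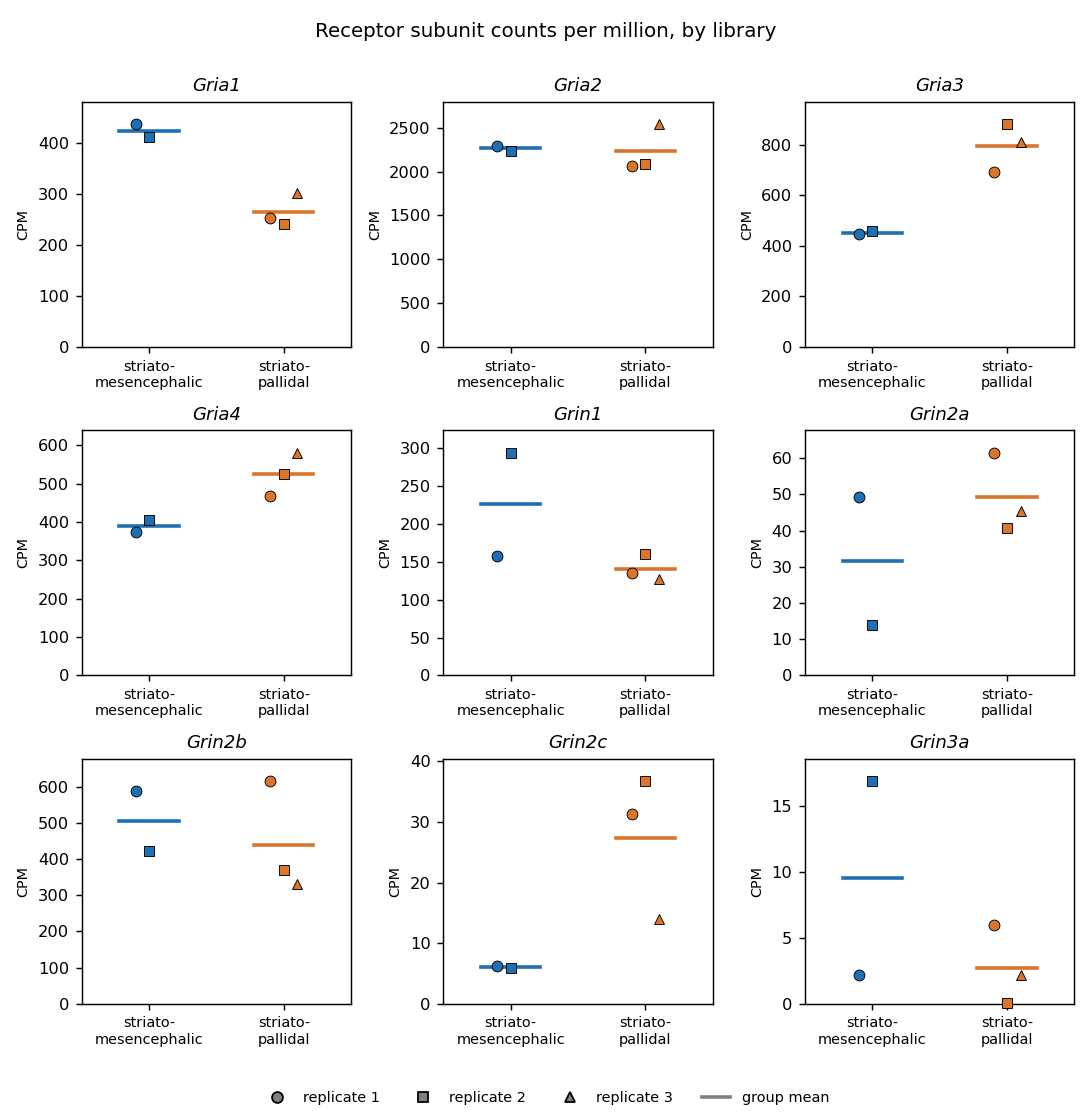
Plain CPM (vertical axis, starting at 0 and scaled for each gene) of the 9 matched AMPA and NMDA receptor genes in striatomesencephalic (left, 2 libraries) and striatopallidal (right, 3 libraries) neurons, with symbols for replicates and a line at each group's mean. The groups stand apart for Gria1, Gria3, Gria4 and Grin2c and overlap for the other 5 genes.

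Gria1 encodes the AMPA receptor subunit that is added to synapses during long-term potentiation. It stood at 436 and 411 CPM in the striatomesencephalic libraries, against 252, 240 and 302 CPM in the striatopallidal libraries. Both striatomesencephalic values lay above all striatopallidal values. The fitted log2 fold change was 0.59 ± 0.34 (SE), a 1.51-fold higher level, with a 95% interval of -0.20 to 1.39 and an adjusted p of 0.794 in edgeR's quasi-likelihood test. It stayed between 0.46 and 0.69 whichever library was left out.

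Gria2 encodes the subunit whose edited form keeps calcium out of the channel. It stood at 2293 and 2240 CPM in the striatomesencephalic libraries, against 2062, 2088 and 2539 CPM in the striatopallidal libraries. The striatomesencephalic values lay within the striatopallidal range. The fit gave -0.07 ± 0.27 (SE) on the log2 scale, with a 95% interval of -0.69 to 0.56, so differences of up to about that size in either direction are not excluded. The value was 0.06 without striatopallidal replicate 2 and 0.02 with library totals in place of TMM. Gene counts do not separate edited from unedited Gria2 transcripts, nor the flip and flop splice forms of any AMPA receptor gene.

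Gria3 encodes a subunit that pairs with the Gria2 product in receptors that cycle constantly through synapses. It stood at 446 and 458 CPM in the striatomesencephalic libraries, against 692, 881 and 812 CPM in the striatopallidal libraries. The groups were separated by more than the spread within either of them. Group means were 452 ± 9.05 CPM in striatomesencephalic libraries (SD, n = 2) and 795 ± 95.4 CPM in striatopallidal libraries (SD, n = 3). The log2 fold change was -0.93 ± 0.37 (SE), or 1.91-fold more in striatopallidal libraries, with an unadjusted p of 0.0393 and an adjusted p of 0.779 in edgeR's quasi-likelihood test. Left-out libraries moved it between -1.12 and -0.65, the weakest value being the one without striatopallidal replicate 2.

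Gria4 encodes a fast-gating subunit that is prominent in several interneuron types. It stood at 374 and 405 CPM in the striatomesencephalic libraries, against 468, 527 and 581 CPM in the striatopallidal libraries. The groups did not overlap, with a gap between them that was smaller than for Gria3. Its fitted log2 fold change was -0.53 ± 0.35 (SE), with a 95% interval of -1.36 to 0.30 and an adjusted p of 0.809 in edgeR's quasi-likelihood test. Without striatopallidal replicate 2 it was -0.35. Interneuron markers summed to 60.8 and 82.5 CPM in the striatomesencephalic libraries, against 90.2, 62.6 and 128 CPM in the striatopallidal libraries, over the 5 of 12 list members that were matched. These sums overlapped, but single markers moved in both directions. Of the 5, 2 were higher and 2 lower in striatomesencephalic libraries without overlap, where 11.2% and 9.91% of all genes tested were. The part of these markers in the Gria4 values was not tested. In such pooled captures, fewer cells of a type and less RNA per cell cannot be told apart.

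The AMPA receptor genes summed to 3547 and 3515 CPM in the striatomesencephalic libraries, against 3475, 3735 and 4234 CPM in the striatopallidal libraries, so that the groups overlapped in their total. Shares of this total need no scaling between libraries. They are shares of reads, not corrected for transcript length, and so are set here against the same gene in other libraries and not against other genes. Gria1 took 12.3% and 11.7% of the AMPA receptor counts in the striatomesencephalic libraries, against 7.25%, 6.43% and 7.14% in striatopallidal libraries. The shares of Gria3 were 12.6% and 13.0% in the striatomesencephalic libraries, against 19.9%, 23.6% and 19.2% in the striatopallidal libraries. Those of Gria4 were 10.5% and 11.5% in the striatomesencephalic libraries, against 13.5%, 14.1% and 13.7% in the striatopallidal libraries. Gria2 took 64.6% and 63.7% in the striatomesencephalic libraries, against 59.3%, 55.9% and 60.0% in the striatopallidal libraries.

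**Figure D2:**
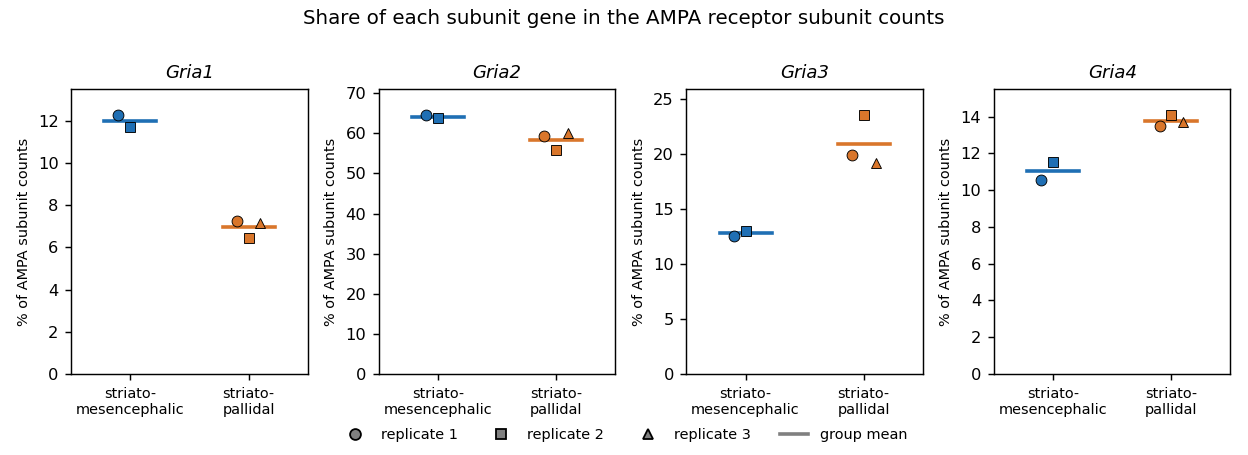
Share of Gria1, Gria2, Gria3 and Gria4 in the summed counts of the 4 AMPA receptor genes (vertical axes, in percent, each starting at 0), for striatomesencephalic libraries on the left and striatopallidal libraries on the right, with symbols for replicates and a line at each group's mean. Gria1 and Gria2 shares lie higher and Gria3 and Gria4 shares lower in both striatomesencephalic libraries than in all 3 striatopallidal libraries.

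All 4 shares were separated between the groups. The mean share of Gria3 was 12.8% ± 0.340 (SD, n = 2) in striatomesencephalic neurons and 20.9% ± 2.35 (SD, n = 3) in striatopallidal neurons, a difference of -8.09 percentage points. The difference was 5.04 points for Gria1, 5.78 for Gria2 and -2.73 for Gria4. The shares add up to the whole, so a lower Gria3 share raises the others, and the Gria2 share was higher although its CPM was level. Each of the 4 differences had p = 0.1 in an exact two-sided permutation test over the libraries, the smallest p that 2 libraries against 3 allow, and an adjusted p of 0.2 over the 14 shares, sums and ratios tested. Every difference kept its sign without any one library, with ranges of 4.74 to 5.34 points for Gria1 and -8.94 to -6.75 points for Gria3.

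The ratio of Gria1 to Gria2 counts compares receptor genes within a library. It was 0.190 and 0.183 in the striatomesencephalic libraries, against 0.122, 0.115 and 0.119 in striatopallidal libraries. The spread within groups was small beside the gap. On the log2 scale the means were -2.42 ± 0.04 in striatomesencephalic libraries (SD, n = 2) and -3.07 ± 0.04 in striatopallidal libraries (SD, n = 3), a difference of 0.65, with p = 0.1 and an adjusted p of 0.2 by the exact permutation test. The ratio of Gria1 to Gria3 counts, described because their values were seen to move apart and given no test, was 0.977 and 0.896 in the striatomesencephalic libraries, against 0.364, 0.273 and 0.372 in striatopallidal libraries.

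Each AMPA receptor gene had a smaller spread within groups than the median gene of these libraries. The SD of log2 TMM-scaled CPM within groups was 0.21 for Gria1, 0.24 for Gria2, 0.37 for Gria3 and 0.30 for Gria4. The median was 0.82 over all 13811 genes tested and 0.47 over the 2197 genes with a mean of at least 100 CPM. Of those 2197 genes, 89.1% had a larger SD than Gria1, 85.1% than Gria2, 63.5% than Gria3 and 75.9% than Gria4. The NMDA receptor genes ran from 0.39 for Grin2b, close to Gria3, to 1.75 for Grin3a.

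Grin1 encodes the subunit that every conventional NMDA receptor needs. It stood at 158 and 293 CPM in the striatomesencephalic libraries, against 135, 160 and 127 CPM in the striatopallidal libraries. Striatomesencephalic replicate 2 was above the other 4 libraries, and replicate 1 lay inside the striatopallidal range. Its fitted log2 fold change was 0.57 ± 0.48 (SE), with an adjusted p of 0.852 in edgeR's quasi-likelihood test, and 0.03 without striatomesencephalic replicate 2.

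Grin2a encodes the glutamate-binding subunit that increases at forebrain synapses as they mature. It stood at 49.2 and 14.0 CPM in the striatomesencephalic libraries, against 61.5, 40.6 and 45.4 CPM in the striatopallidal libraries. The value of striatomesencephalic replicate 2 was the lowest of the 5, and the groups overlapped. The log2 fold change of -0.71 ± 0.70 (SE) had an adjusted p of 0.872 in edgeR's quasi-likelihood test and was -0.07 without striatomesencephalic replicate 2 and -1.85 without striatomesencephalic replicate 1.

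Grin2b encodes the subunit of slowly closing NMDA receptors that is abundant in the striatum. It stood at 587 and 423 CPM in the striatomesencephalic libraries, against 615, 371 and 330 CPM in the striatopallidal libraries. The groups overlapped over most of their range. Its fitted log2 fold change was 0.14 ± 0.37 (SE), with a 95% interval of -0.74 to 1.02. It was -0.09 without striatomesencephalic replicate 1 and -0.07 without striatopallidal replicate 3.

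Grin2c encodes a subunit best known from cerebellar granule cells and also found in astrocytes. It had 130 and 133 counts in the striatomesencephalic libraries, against 746, 911 and 314 counts in the striatopallidal libraries, or 6.24 and 5.88 CPM against 31.3, 36.7 and 14.0 CPM. The lowest striatopallidal value was above both striatomesencephalic values, and the striatopallidal libraries differed widely among themselves. The log2 fold change was -2.32 ± 0.86 (SE), the largest negative value of the 9 genes, with a 95% interval of -4.34 to -0.30, an unadjusted p of 0.0300 and an adjusted p of 0.779 in edgeR's quasi-likelihood test. It ran from -2.68 to -1.80 with each library left out, the weakest value being the one without striatopallidal replicate 2.

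Astrocyte RNA was counted in every library. The 10 astrocyte markers, all matched, summed to 1207 and 1048 CPM in the striatomesencephalic libraries, against 1422, 1044 and 1205 CPM in the striatopallidal libraries, and overlapped. Gfap, the filament protein of astrocytes, stood at 11.5 and 3.85 CPM in the striatomesencephalic libraries, against 243, 175 and 87.7 CPM in the striatopallidal libraries. Aqp4, their water channel, stood at 53.0 and 30.5 CPM in the striatomesencephalic libraries, against 89.4, 63.5 and 62.3 CPM in the striatopallidal libraries. Both were lower in striatomesencephalic libraries without overlap, as Grin2c was. Another 2 markers were higher there without overlap. Slc1a2, the main glutamate transporter of astrocytes, stood at 37.6 and 63.9 CPM in the striatomesencephalic libraries, against 25.4, 36.4 and 26.2 CPM in the striatopallidal libraries, and overlapped on TMM-scaled CPM. Aldh1l1, a folate enzyme, stood at 1.87 and 7.83 CPM in the striatomesencephalic libraries, against 1.55, 0.484 and 0.312 CPM in the striatopallidal libraries. The other 6 markers overlapped. Of the 10 markers, 2 were thus lower and 2 higher without overlap, where 9.91% and 11.2% of all genes tested were. The fitted log2 fold changes were -4.56 ± 0.82 (SE) for Gfap and -0.86 ± 0.54 for Aqp4, against 0.66 ± 0.65 for Slc1a2 and 2.63 ± 1.25 for Aldh1l1. Gfap was the 1 marker with an unadjusted p below 0.05 in edgeR's quasi-likelihood test (0.00084, adjusted p 0.779), where 3.14% of all genes were called in that direction. The list had a median log2 fold change of 0.01, which does not show the size of single markers, and none of its markers was at 0. Their part in the Grin2c values was not tested.

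Grin3a encodes a glycine-binding subunit that lowers calcium entry through NMDA receptors. It had 45 and 381 counts in the striatomesencephalic libraries, against 142, 2 and 49 counts in the striatopallidal libraries. Striatopallidal replicate 2 was below the floor of 3 counts, and striatomesencephalic replicate 2 was above the other 4 libraries. The log2 fold change of 1.91 ± 1.55 (SE) was -0.25 without striatomesencephalic replicate 2 and stayed positive with any other library left out.

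**Figure D3:**
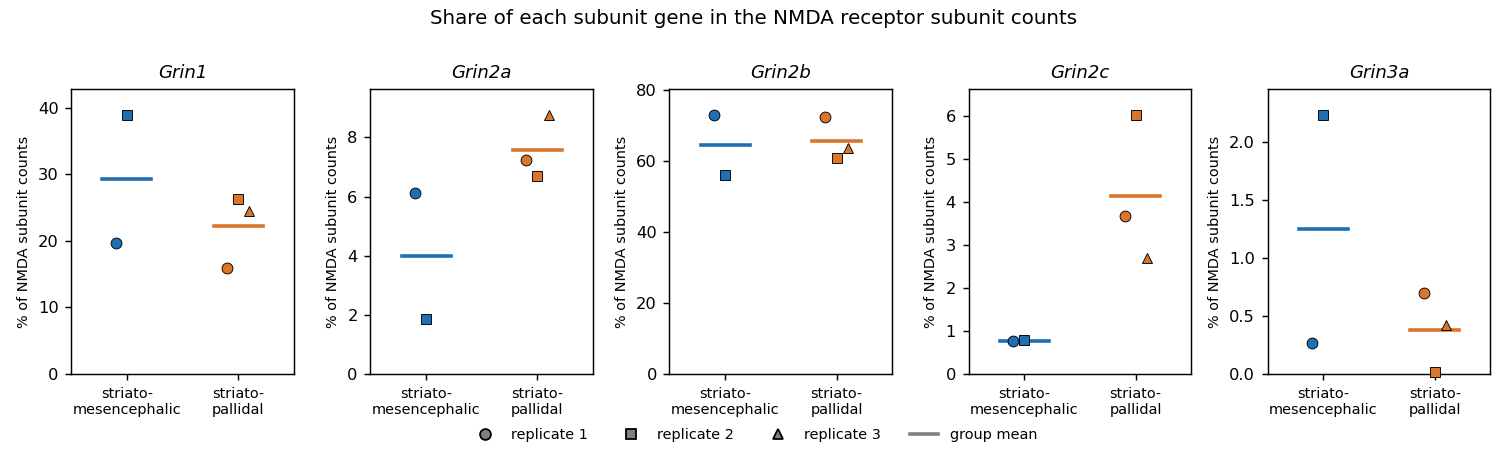
Share of each of the 5 matched NMDA receptor genes in their summed counts (vertical axes, in percent, each starting at 0), for striatomesencephalic libraries on the left and striatopallidal libraries on the right, with symbols for replicates and a line at each group's mean. Grin2a and Grin2c shares are lower in both striatomesencephalic libraries than in all 3 striatopallidal libraries, and those of Grin1, Grin2b and Grin3a overlap.

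The 5 matched NMDA receptor genes summed to 803 and 753 CPM in the striatomesencephalic libraries, against 849, 608 and 518 CPM in the striatopallidal libraries. Within this sum, which lacks Grin2d, Grin2c took 0.777% and 0.781% of the counts in the striatomesencephalic libraries, against 3.69%, 6.04% and 2.70% in the striatopallidal libraries. Grin2a took 6.13% and 1.86% in the striatomesencephalic libraries, against 7.24%, 6.68% and 8.77% in the striatopallidal libraries. These shares were separated between the groups, with a difference of -3.36 percentage points for Grin2c (p = 0.2 by the exact permutation test, adjusted p = 0.35) and of -3.57 points for Grin2a (p = 0.1, the smallest possible, adjusted p = 0.2). The Grin2a difference was -1.43 points without striatomesencephalic replicate 2 and -5.71 points without striatomesencephalic replicate 1.

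Grin2b took 73.2% and 56.1% of NMDA receptor counts in the striatomesencephalic libraries, against 72.5%, 60.9% and 63.6% in striatopallidal libraries. Grin1 took 19.7% and 39.0% in the striatomesencephalic libraries, against 15.9%, 26.4% and 24.5% in the striatopallidal libraries. Both overlapped, and their differences of -1.04 and 7.10 points were 7.46 and -2.55 points without striatomesencephalic replicate 2. The Grin2b difference also turned to 2.36 points without striatopallidal replicate 1. The share of Grin3a was 0.269% and 2.24% in the striatomesencephalic libraries, against 0.702%, 0.0133% and 0.422% in the striatopallidal libraries, and its difference of 0.875 points was -0.110 without striatomesencephalic replicate 2.

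The ratio of Grin2b to Grin2a counts was 11.9 and 30.2 in the striatomesencephalic libraries, against 10.01, 9.12 and 7.26 in striatopallidal libraries. All 3 striatopallidal ratios were below both striatomesencephalic ratios, and the striatomesencephalic pair lay far apart. The mean difference was 1.12 on the log2 scale, with p = 0.1 by the exact permutation test, and it was 0.45 without striatomesencephalic replicate 2 and 1.79 without striatomesencephalic replicate 1. The log2 ratio of summed AMPA to summed NMDA receptor counts was 2.14 and 2.22 in the striatomesencephalic libraries, against 2.03, 2.62 and 3.03 in the striatopallidal libraries, and overlapped (p = 0.4, exact permutation test).

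**Figure D4:**
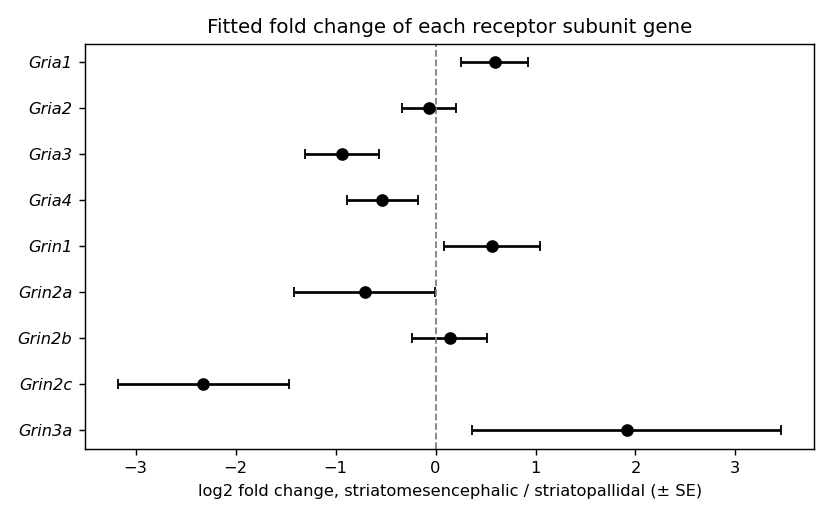
Fitted log2 fold change of striatomesencephalic over striatopallidal libraries (horizontal axis, points with bars of 1 SE) for the 9 receptor genes. Gria3 and Grin2c lie at -0.93 and -2.32, the other genes between -0.71 and 1.91, and no gene passed the adjusted threshold.

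The authors' deposited table, which rests on the same libraries, runs in the opposite direction (striatopallidal minus striatomesencephalic). It gave log2 fold changes of 0.82 for Gria3, -0.69 for Gria1, 0.43 for Gria4 and 2.10 for Grin2c. The remaining values were -0.62 for Grin1, 0.89 for Grin2a, -0.25 for Grin2b, -2.86 for Grin3a and -0.04 for Gria2. Of all these, only that of Gria2 differed in direction from the fit here. In the authors' deposited table the adjusted p-values of the 9 genes ran from 0.927 to 0.983, and Gria3 had the smallest p-value of them, ranking 146 among 12054 genes.

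Promoter sequence is shown for Gria4 and Grin2c, the genes lower without overlap in striatomesencephalic libraries for which the RefSeq promoter table had an entry (it held 5 of the 10 listed genes). Each run is the 250 bases before the annotated start, in build GRCr8 and on the minus strand, at chr8:10319882-10320131 for Gria4 and chr10:101005139-101005388 for Grin2c. Capitals mark matches to the E box CANNTG, the recognition letters of basic helix-loop-helix factors.
Gria4: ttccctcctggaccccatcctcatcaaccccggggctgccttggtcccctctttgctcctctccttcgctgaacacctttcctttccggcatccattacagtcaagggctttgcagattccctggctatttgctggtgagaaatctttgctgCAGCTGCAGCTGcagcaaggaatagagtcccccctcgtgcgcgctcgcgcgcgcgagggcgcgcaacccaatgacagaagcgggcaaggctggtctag
Grin2c: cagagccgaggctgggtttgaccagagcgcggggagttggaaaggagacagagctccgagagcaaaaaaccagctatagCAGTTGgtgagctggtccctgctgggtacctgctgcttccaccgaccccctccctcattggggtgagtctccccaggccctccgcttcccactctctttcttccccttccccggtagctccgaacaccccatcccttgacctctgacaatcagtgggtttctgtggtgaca
The E box had 2 matches in Gria4, next to each other, and 1 in Grin2c, and 65.6% of 33465 such promoter windows held at least 1. The GC box GGGCGG, the cyclic AMP response element core TGACG and the TATA box TATAAA had 0 matches on either strand in both windows, where 30.5%, 18.2% and 12.9% of all windows held them. The windows held 14 and 8 CpG dinucleotides, beside a median of 5 over all windows. In both genes a longer annotated span covers this start, so other starts exist. The matches are a description of these letters only.

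Genes that assemble, hold or move AMPA receptors did not pass the test in either direction. Of 25 auxiliary and assembly genes listed, 22 were matched and tested, of which 11 lay above and 11 below 0, with a median log2 fold change of 0.02. In edgeR's quasi-likelihood test 0 of the 22 passed, 1 had an unadjusted p below 0.05, and 3 were higher and 3 lower without overlap, near the shares over all genes of 2.93% higher and 3.14% lower at that p, and of 11.2% higher and 9.91% lower without overlap. Cacng4, a transmembrane auxiliary subunit of AMPA receptors, stood at 322 and 216 CPM in the striatomesencephalic libraries, against 151, 79.5 and 96.4 CPM in the striatopallidal libraries. Its log2 fold change was 1.26 ± 0.40 (SE), with an unadjusted p of 0.0168 and an adjusted p of 0.779.

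Frrs1l, needed for AMPA receptor assembly, stood at 25.4 and 14.9 CPM in the striatomesencephalic libraries, against 31.5, 56.6 and 49.2 CPM in the striatopallidal libraries, with a log2 fold change of -1.33 ± 0.71 (SE). These groups did not overlap either, and the log2 fold change was -0.93 without striatopallidal replicate 2. Abhd6, a lipase that limits AMPA receptor delivery, had a log2 fold change of 0.22, and Nptx1, a secreted pentraxin that clusters AMPA receptors, 0.13.

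Of 13 trafficking partners, 12 were matched, with log2 fold changes above 0 in 9 and below 0 in 3, a median of 0.28 and 0 passing in edgeR's quasi-likelihood test, at an unadjusted p below 0.05 also 0. Akap5, which anchors kinases at the receptor, stood at 74.8 and 98.7 CPM in the striatomesencephalic libraries, against 37.2, 22.9 and 62.5 CPM in the striatopallidal libraries (log2 fold change 1.06 ± 0.56, SE). It was the 1 gene of the 12 whose groups did not overlap, where 11.2% of all genes were higher and 9.91% lower without overlap. Nsf, Dlg1 and Nsg1, which recycle or anchor receptors, had values of 0.02, 0.28 and 0.0036. Grip2, a scaffold for the Gria2 and Gria3 products, had 3947 and 92 counts in the striatomesencephalic libraries, against 332, 431 and 34 counts in the striatopallidal libraries, so that its log2 fold change of 2.94 turned to -1.59 without striatomesencephalic replicate 1.

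Of 20 NMDA receptor partners and co-agonist genes, 18 were matched. Their log2 fold changes were above 0 in 9 and below 0 in 9, with a median of 0.03 and 0 passing in edgeR's quasi-likelihood test. Kif17, the motor that carries Grin2b-containing vesicles, was the 1 gene of the 18 with an unadjusted p below 0.05, where 2.93% of all genes were called in that direction. It stood at 63.2 and 35.7 CPM in the striatomesencephalic libraries, against 16.0, 1.29 and 9.41 CPM in the striatopallidal libraries. This corresponds to 2.54 ± 0.95 (SE) on the log2 scale, at an adjusted p of 0.779. Ephb2, a receptor kinase that binds NMDA receptors, had 2 and 3 counts in the striatomesencephalic libraries, against 43, 346 and 1 counts in the striatopallidal libraries. Neto1, an auxiliary protein first described with NMDA receptors, had -0.16. The kinase gene Fyn had -0.16, and Ptpn5, which encodes the phosphatase STEP that opposes it at Grin2b, had -0.09.

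The RNA editing enzymes were all matched. Adarb1, which edits the Gria2 transcript at the site that blocks calcium, stood at 115 and 169 CPM in the striatomesencephalic libraries, against 157, 129 and 178 CPM in the striatopallidal libraries, and overlapped. Adar stood at 312 and 275 CPM in the striatomesencephalic libraries, against 138, 211 and 174 CPM in the striatopallidal libraries, without overlap on CPM but with overlap on TMM-scaled CPM, and a log2 fold change of 0.61 ± 0.45 (SE). Adarb2, which has no known editing activity, had -0.77 ± 0.96 (SE). None of the 3 passed in edgeR's quasi-likelihood test, where 0 had an unadjusted p below 0.05. Editing itself is not seen in gene counts.

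The genes whose pattern over the 5 libraries was most like that of the summed AMPA receptor genes were Mk1, Lrrc49 and Prnp. Their Euclidean distances between centred log2 values of TMM-scaled CPM were 0.0548, 0.118 and 0.124, where the median over 8660 candidate genes was 1.54. For the summed NMDA receptor genes they were Klf7, Ankrd39 and Sptan1, at 0.122, 0.136 and 0.149 beside a median of 1.59. These genes were picked as the nearest of 8660 candidates over 5 libraries. Distances far below the median follow from that choice and are no evidence of a shared role.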

How the data were processed

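The submitters' processing notes name build Rnor_6.0 and the tools TopHat2, HTSeq, edgeR and limma, while the step each served and its version are not stated there. Per the labels' protocols, polyadenylated RNA of captured cells was amplified with a single-cell kit (REPLI-g) before library preparation, which can add spread that reads do not show. The authors deposited read counts per Ensembl gene for each library, and these counts were the input of all tests. Their table of CPM, a normalized signal deposited by the authors, served as an alternative for shares. A deposited comparison by the authors gives log2 fold changes and p-values, and its symbols named the genes, 11904 of those tested. Its table of normalized values was not used.

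Counts were fitted with edgeR 4.0.16 in R 4.3.3 (filterByExpr, TMM, glmQLFit, glmQLFTest, Benjamini-Hochberg threshold 0.05 over 13811 genes), and each standard error is the fold change over the square root of F. The step was tested on simulated data, where recovery of planted changes was required only at a spread well below that of these libraries. That check does not show that changes are recovered at the spread seen here. Shares, sums and ratios were tested by exact permutation over 10 groupings. Alternatives were DESeq2 1.42.0, limma 3.58.1 voom, the exact test of edgeR, other scalings, no filter, left-out libraries and a replicate block. The within-group spread and the likeness used log2 of TMM-scaled CPM with a pseudocount of 0.5, the likeness over genes with a mean of at least 10 CPM. Besides all subunits, the genes named were, in each of the 4 companion lists (AMPA auxiliary, trafficking, NMDA partner and editing genes), the 3 with the highest mean CPM and the 2 with the smallest p, and the 3 genes most like each receptor sum. The marker genes Drd1, Drd2, Olig1, Gfap, Aqp4, Slc1a2 and Aldh1l1 fall outside this rule and were chosen after their values were seen. The members, lists and rules were chosen with earlier results of these data known. No transcript lengths or genome of the build were used, so levels of different genes are not ranked, and no positions in that build are given.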

Additional observations from a re-analysis of the deposited data

How the results depend on the processing

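The 9 subunit genes had 0 calls under all 13 alternatives, and Gria1, Gria3, Gria4, Grin1, Grin2a and Grin2c kept their sign in each. Over all genes, DESeq2 called 219 and the exact test of edgeR 45, where edgeR's quasi-likelihood test called 0. The companion lists had 0 calls throughout. Apart from DESeq2 and the exact test, no alternative called any gene at all, so 0 calls among subunit or companion genes were fixed there. Of 117 subunit fold changes under alternatives, 6 changed sign. With library totals only, Gria2 was 0.023. With the replicate block Grin2b was -0.076 and Adarb2 0.054. Nsg1 was -0.0030 with DESeq2 size factors and with DESeq2, and -0.0052 with limma voom, and Adarb2 was 0.041 with limma voom. Of 219 companion fold changes 20 changed sign. With each library left out in turn, Gria2 ran from -0.22 to 0.058, Grin2b from -0.091 to 0.35 and Grin3a from -0.25 to 3.08. Among companion genes the ranges were Nptx1 -0.22 to 0.41, Grip2 -1.59 to 3.92, Nsf -0.21 to 0.23, Nsg1 -0.18 to 0.17, Neto1 -0.74 to 0.26, Ptpn5 -0.39 to 0.17, Fyn -0.38 to 0.10, Adarb1 -0.51 to 0.081 and Adarb2 -1.28 to 0.38. Of 63 share differences 4 changed sign, all with a library left out: Grin1 ran from -2.55 to 16.8 percentage points, Grin2b from -9.55 to 7.46 and Grin3a from -0.110 to 1.86. The 35 values for sums and ratios kept their sign. The causes were not tested. Replicate numbers are shared between the groups, and deviations of same-numbered libraries correlated at -0.02 and -0.04. These values show no pairing but cannot exclude it, since the deviations of 2 striatomesencephalic libraries are mirror images of each other. With the replicate block 0 genes passed, 465 had an unadjusted p below 0.05 against 839 without it, and the Gria3 and Grin2c fold changes were -0.93 and -2.62. Only the striatopallidal group has a replicate 3, so the block takes that library out of the comparison. The 465 and 839 thus do not rest on the same libraries. Shares per transcript length were not run, since no such lengths were given. Grin3a had 2 to 381 counts per library, while the other 8 genes had at least 130.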
